A study of Mus musculus with 4 samples.

Results

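A set of 1969 distal regions carried H3K27ac peaks in the EGFP- cells of both limb and trunk and no peak in the EGFP+ cells of either tissue. They were selected on these measured peak calls. Peak rows sharing a start and end were joined in each of the 4 peak lists, overlapping intervals of the 4 lists were merged into 62558 union regions, and 42651 of these were distal, that is, clear of the promoter window of every protein-coding transcription start site (2 kb upstream, 500 bp downstream) on chromosomes 1 to 19, X and Y. The members made up 4.62% of the distal regions, against 10.8% (4623 regions) with the mirror pattern of peaks in both EGFP+ populations and none in EGFP- cells. Presence or absence of a peak defined the members, so their levels in the 4 lists are given as a description, with no test.

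The chromatin came from E14.5 mouse fetuses made by tetraploid aggregation from a homozygous Col2a1-EGFP embryonic stem cell line on the G4 background, in which an EGFP sensor cassette upstream of Col2a1 lights up chondrocytes. Dissected limbs (limb bud in the labels) or trunks were dissociated, sorted by fluorescence into EGFP+ and EGFP- cells, and used for chromatin immunoprecipitation of histone H3 acetylated at lysine 27, with 1 library for each of the 4 populations: limb EGFP+, limb EGFP-, trunk EGFP+ and trunk EGFP-. No replicate error could be computed, and agreement was read between the limb and trunk libraries. All 4 groups share the genotype, the stage and the aggregation procedure, and each library pools cells of whole tissues.

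H3K27ac is deposited by the acetyltransferases CBP and p300 on nucleosomes beside active promoters and enhancers, and distal sites with the mark are commonly used as a map of candidate enhancers. The EGFP- fraction of a fetal limb or trunk is everything but Col2a1-expressing cartilage: muscle, tendon, dermis and other connective tissue, vessels, blood, nerve and epidermis. Basic helix-loop-helix (bHLH) factors, which include the muscle factors MYOD and myogenin, the mesenchymal TWIST proteins and the blood and endothelial factor TAL1, bind E-boxes, hexamers of the form CANNTG. In such a mixture a peak cannot tell a strong mark in few cells from a weak mark in many.

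Sequence from GRCm39, plus strand, is shown for 2 groups of members. Capitals mark the E-boxes CAGATG and CAGCTG on either strand, so that CAGATG may read CATCTG. The first group is the strongest member and the strongest members near 3 gene groups of the EGFP- fraction, each as 201 bases centred on the limb EGFP- summit. These are the member in an intron of Limk1 at chr5:134705308-134705508, the member in Cdh15 at chr8:123575284-123575484, the member near Casq2 at chr3:102060068-102060268 and the member near Acta2 at chr19:34322904-34323104.
Limk1 intron: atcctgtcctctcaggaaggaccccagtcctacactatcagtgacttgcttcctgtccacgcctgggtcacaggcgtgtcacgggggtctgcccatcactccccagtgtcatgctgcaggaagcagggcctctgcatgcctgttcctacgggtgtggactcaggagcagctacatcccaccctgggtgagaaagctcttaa
Cdh15: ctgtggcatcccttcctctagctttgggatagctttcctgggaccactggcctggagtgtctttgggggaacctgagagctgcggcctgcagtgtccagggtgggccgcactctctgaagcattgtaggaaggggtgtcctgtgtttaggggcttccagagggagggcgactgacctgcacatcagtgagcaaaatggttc
Casq2: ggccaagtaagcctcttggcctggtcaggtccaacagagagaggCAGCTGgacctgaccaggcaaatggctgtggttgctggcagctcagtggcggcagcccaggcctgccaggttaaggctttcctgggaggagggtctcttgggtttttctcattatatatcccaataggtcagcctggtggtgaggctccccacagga
Acta2: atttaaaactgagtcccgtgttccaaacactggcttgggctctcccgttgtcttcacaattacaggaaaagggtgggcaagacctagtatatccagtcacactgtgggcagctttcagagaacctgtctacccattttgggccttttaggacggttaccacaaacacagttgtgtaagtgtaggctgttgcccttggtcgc
The second group was picked after the E-box shares were seen, for many matches near the summit. It shows extreme cases and does not stand for the members. It gives 300 bases each from a member 223 kb upstream of Rgmb (chr17:16274725-16275024), from an intron of Megf6 (chr4:154308999-154309298) and from an intron of Pdpn (chr4:143006462-143006761).
Rgmb upstream: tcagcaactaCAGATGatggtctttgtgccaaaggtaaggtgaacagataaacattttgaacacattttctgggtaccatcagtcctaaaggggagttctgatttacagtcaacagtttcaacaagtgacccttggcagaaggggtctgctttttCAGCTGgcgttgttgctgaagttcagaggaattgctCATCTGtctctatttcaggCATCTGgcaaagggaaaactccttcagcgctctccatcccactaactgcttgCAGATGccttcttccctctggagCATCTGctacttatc
Megf6 intron: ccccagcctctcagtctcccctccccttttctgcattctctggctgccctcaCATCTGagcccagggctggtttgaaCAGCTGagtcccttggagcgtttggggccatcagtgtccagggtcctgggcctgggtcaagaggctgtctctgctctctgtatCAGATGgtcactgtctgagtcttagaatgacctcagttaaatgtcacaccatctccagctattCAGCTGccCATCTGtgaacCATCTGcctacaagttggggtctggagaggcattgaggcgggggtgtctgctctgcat
Pdpn intron: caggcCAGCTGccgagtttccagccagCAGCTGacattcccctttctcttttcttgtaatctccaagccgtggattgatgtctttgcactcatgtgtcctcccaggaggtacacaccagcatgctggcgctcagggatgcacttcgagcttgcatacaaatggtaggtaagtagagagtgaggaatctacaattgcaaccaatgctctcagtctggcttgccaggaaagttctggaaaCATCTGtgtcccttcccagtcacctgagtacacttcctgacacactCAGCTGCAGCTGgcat
Of 9 windows read at the limb summits of the strongest member overall and of those of the gene groups searched, 1, near Casq2, held a CAGCTG and 8 held neither hexamer. The Rgmb and Megf6 stretches held 6 matches each, the most found in any 300 bases within 500 bp of a member summit, a number reached by 4 members. The other 2, near Il2rb and Gnl2, hold runs of short tandem repeats and are not shown. In the Pdpn stretch, 4 CAGCTG stood with 1 CAGATG.

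The EGFP- label was first compared with promoters. Promoter windows of 12 chondrocyte genes (Col2a1, Col9a1, Col11a2, Acan, Sox9, Matn1, Matn3, Matn4, Fgfr3, Hapln1, Snorc and Cnmd) overlapped a peak in 12 of 12 cases in both EGFP+ lists, in 4 of 12 in limb EGFP- cells and in 2 of 12 in trunk EGFP- cells. Defining markers of the other lineages were almost absent from the EGFP- lists. Of 18 such promoters (Myod1, Myf5 and Myog for muscle, Scx, Tnmd and Kera for tendon, Cdh5, Pecam1 and Kdr for endothelium, Gata1, Klf1 and Spi1 for blood, Krt5, Krt14 and Trp63 for skin, Sox10, Elavl3 and Tubb3 for nerve), limb EGFP- cells had a peak at 0 and trunk EGFP- cells at 1, Tubb3. Limb EGFP+ cells had a peak at 3 of the 18 (Myog, Kera and Sox10) and trunk EGFP+ cells at 1, Scx. The EGFP- lists thus lacked most chondrocyte promoters but did not carry those of the lineages named here, and no member is assigned to a cell type.

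Member regions were of moderate strength. At the strongest limb EGFP- summit of each member the median −log10 p of the peak caller was 6.94 (range 3.37 to 26.5), with 16 reads over a local background of 3.38 and a fold enrichment of 3.85. The trunk EGFP- medians were 6.50 (3.45 to 23.8), 17 reads over 3.76 and 3.59. Within the distal peaks of their own list, the median member ranked at percentile 52.4 in limb and 48.6 in trunk. A −log10 q of at least 5 was reached in both EGFP- lists by 343 members (17.4%), in one by 772 (39.2%) and in neither by 854 (43.4%). Distal regions marked in all 4 populations were stronger in the same libraries, with median −log10 p of 12.7 in limb and 10.5 in trunk EGFP- cells.

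The limb and trunk summits of a member lay close together, but the rule itself limits this distance. Both intervals had to fall in 1 merged region, with a median width of 443 bp. The median distance between both EGFP- summits was 86 bp, with 55.8% of members within 100 bp and 81.8% within 200 bp. Regions of both EGFP+ populations gave 88 bp between their EGFP+ summits, and regions of all 4 gave 65 bp. The strengths in limb and trunk were weakly related in the members. Across the 1969 members the −log10 p of limb and trunk had a Spearman coefficient of 0.191 (Pearson r of 0.240 on log10 values), against 0.329 in the EGFP+ mirror set and 0.692 between the EGFP- lists in regions of all 4. The points of each coefficient share 2 libraries, so the coefficients are descriptions. The limb value was the higher one in 1126 members (57.2%).

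**Figure D1:**
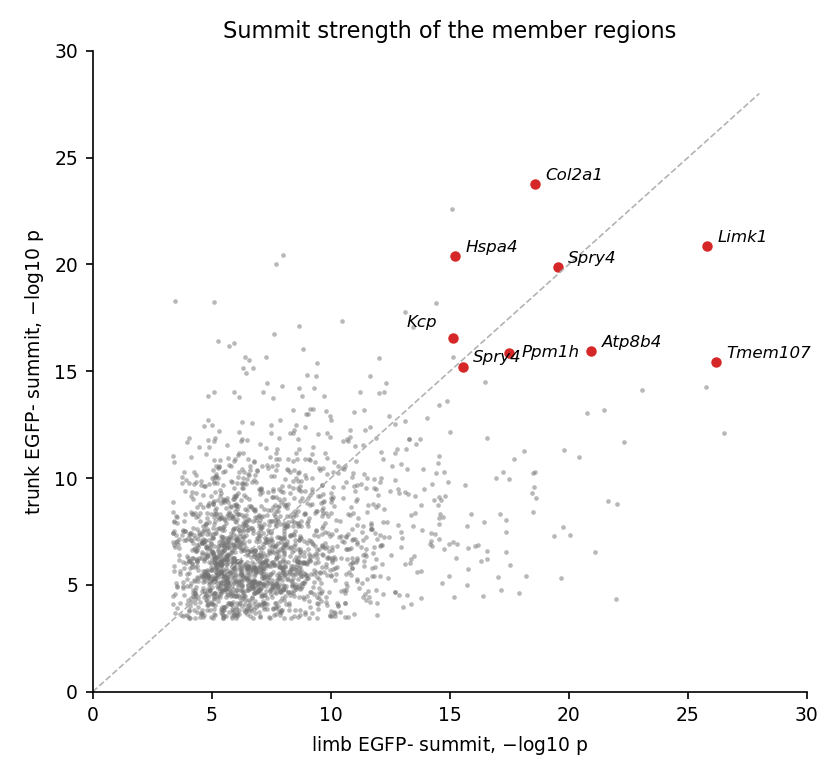
Each point is 1 of the 1969 members, placed by the −log10 p of its strongest summit in the limb EGFP- (x axis) and trunk EGFP- (y axis) peak list, and red points with gene names are members among the 10 whose lower value was highest. The dashed line marks equal values. Most points lie under 10 on both axes, and 86 members reached 10 in both lists.

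By the lower of both −log10 p values, the strongest member lay in an intron of Limk1 (chr5:134704613-134705866), a kinase that acts on the actin cytoskeleton through cofilin. It had 50 reads over a background of 7.1 in limb and 47 over 8.14 in trunk (−log10 p 25.8 and 20.8), and stood 70.9 kb downstream of a start site of Eln, the gene of elastin. The reads in limb and trunk were about equal. A pair of the 10 strongest members lay upstream of Spry4, an inhibitor of receptor tyrosine kinase signalling, at chr18:38764891-38765550 (29.03 kb away, −log10 p 19.5 in limb and 19.9 in trunk) and at chr18:38851327-38852272 (116 kb away, 15.5 and 15.2). The member in an exon of Tmem107, which encodes a protein of the ciliary transition zone, had the largest difference in −log10 p of the 10, with 70 reads in limb and 49 in trunk (26.2 and 15.4). Others lay in introns of Atp8b4 and Ppm1h, 8.22 kb from Hspa4, 5.56 kb from Kcp, which encodes a secreted modulator of BMP signalling, and in an intron of Col2a1.

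The Col2a1 member (chr15:97890460-97890941), the third strongest, sat 11.9 kb downstream of a start site of the collagen gene that defines the sort. Limb EGFP- cells had 38 reads over 5.96 there (−log10 p 18.6) and trunk EGFP- cells 45 over 6.26 (23.8). The nearest EGFP+ intervals lay 8.44 kb away in limb and 8.48 kb away in trunk, and the local background that the peak caller used for them was 43.2 and 38.8 reads. That background in limb EGFP+ cells exceeded the 38 reads of the limb EGFP- summit, so the missing EGFP+ peak at this member does not show less acetylation in EGFP+ cells. In 11 members (0.559%) the background of an EGFP+ interval within 10 kb exceeded the EGFP- summit reads of the same tissue. That background was read at the neighbouring interval and not at the member. A background below the summit reads can also keep a peak from being called, so 11 is not an upper limit.

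EGFP+ acetylation was often close by. The nearest EGFP+ interval of either tissue stood a median of 11.3 kb away, within 500 bp for 252 members (12.8%), within 1 kb for 308 (15.6%), within 5 kb for 565 (28.7%) and beyond 50 kb for 270 (13.7%). Among the 6901 distal regions with peaks in both EGFP- populations, 3785 (54.8%) also had peaks in both EGFP+ populations, 605 (8.77%) in limb EGFP+ cells alone, 542 (7.85%) in trunk EGFP+ cells alone, and the members are the remaining 28.5%. Just inside the rule, 26 members had an EGFP+ interval within 50 bp, with median −log10 p of 6.07 in limb and 6.03 in trunk. Just outside it, 20 regions had EGFP+ intervals covering at most 50 bp of their EGFP- intervals, with medians of 6.51 and 6.45. Among promoter regions, the same pattern was rarer, at 351 of 19907 (1.76%).

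Members had a median width of 443 bp (interquartile range 353 to 589, total 975 kb), between the 314 bp of all distal regions and the 526 bp of the EGFP+ mirror set. Members join intervals of both EGFP- lists, whereas many distal regions rest on a single list, so the rule itself favours wider members. Introns held 835 (42.4%), exons 128 (6.50%) and intergenic sequence 1006 (51.1%, 95% exact binomial interval 48.9 to 53.3, against 45.9% in the EGFP+ mirror set and 47.9% of all distal regions). The nearest protein-coding start site was a median of 34.3 kb away, less than 10 kb for 388 members (19.7%) and 100 kb or more for 427 (21.7%), which is close to the 32.8 kb of the mirror set and to the 34.5 kb of all distal regions. Median GC content of the 501 bases around the stronger summit was 48.9%, against 48.7% in the mirror set and 53.3% in regions of all 4. The widest members were 1640 bp near Dlk1, which encodes a non-canonical NOTCH ligand, 1474 bp in an intron of Ncam1, a neural cell adhesion molecule, and 1444 bp near Cbfb, the partner of the RUNX factors.

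The sequence of the members differed most from that of other distal regions in 2 E-boxes. Within 250 bp of the stronger EGFP- summit, 965 of 1969 members (49.0%, 95% exact binomial interval 46.8 to 51.2) held CAGATG on either strand, against 33.2% of the EGFP+ mirror set (31.8 to 34.5), 31.9% of regions of all 4 and 37.5% of all distal regions. CAGCTG, the hexamer preferred by the muscle factors, was found in 788 members (40.0%, 37.8 to 42.2), against 28.5% of the mirror set (27.2 to 29.9), 32.7% of regions of all 4 and 31.3% of all distal regions. Binomial intervals cover counting error over regions and not error between animals. Both hexamers occurred together in 381 members (19.3%), against 9.63% of the mirror set, and 597 members (30.3%) had neither, against 47.9%. When matches within 10 bases of a short tandem repeat (at least 3 units of up to 6 bases, 12 bases or longer) were left out, CAGATG remained in 48.7% of members and 32.8% of the mirror set, and CAGCTG in 39.7% and 28.2%. Interspersed repeats were not separated. At least 2 copies of CAGATG were present in 267 members (13.6%), against 6.38% of the mirror set.

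The difference did not extend to E-boxes in general. When all 10 distinct CANNTG hexamers were counted, which was done after the first values were seen, members exceeded all distal regions by 11.5 percentage points for CAGATG and by 8.73 for CAGCTG, and the other 8 differed by −3.12 to 2.13 points. The lowest of these was CAGGTG (read CACCTG on the other strand), bound by E proteins and by the ZEB repressors, which was in 22.6% of members (20.8 to 24.5) and 25.7% of all distal regions. Members had the highest share of both hexamers inside each of 3 bands of GC content. From 45 to below 50% GC, CAGATG was found in 51.4% of 700 members and 31.7% of 1535 mirror regions, and CAGCTG in 38.1% and 28.1%.

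Regions seen in a single EGFP- library were compared with all distal regions (37.5% for CAGATG and 31.3% for CAGCTG). They had more CAGATG in both tissues and more CAGCTG in trunk. CAGATG was in 44.5% of the 6753 distal regions with a peak in limb EGFP- cells alone (43.3 to 45.7) and in 42.0% of the 4842 of trunk EGFP- cells alone (40.7 to 43.5), against 32.5% of those of limb EGFP+ cells alone and 37.2% of those of trunk EGFP+ cells alone. CAGCTG was in 32.2% of limb EGFP- (31.0 to 33.3) and 37.3% of trunk EGFP- single-list regions, against 26.5% and 28.4% of the EGFP+ ones. The limb EGFP- interval held the 31.3% of all distal regions. Members stood above all of these single-list classes for both hexamers, and their interval overlapped that of the trunk EGFP- class for CAGCTG.

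**Figure D2:**
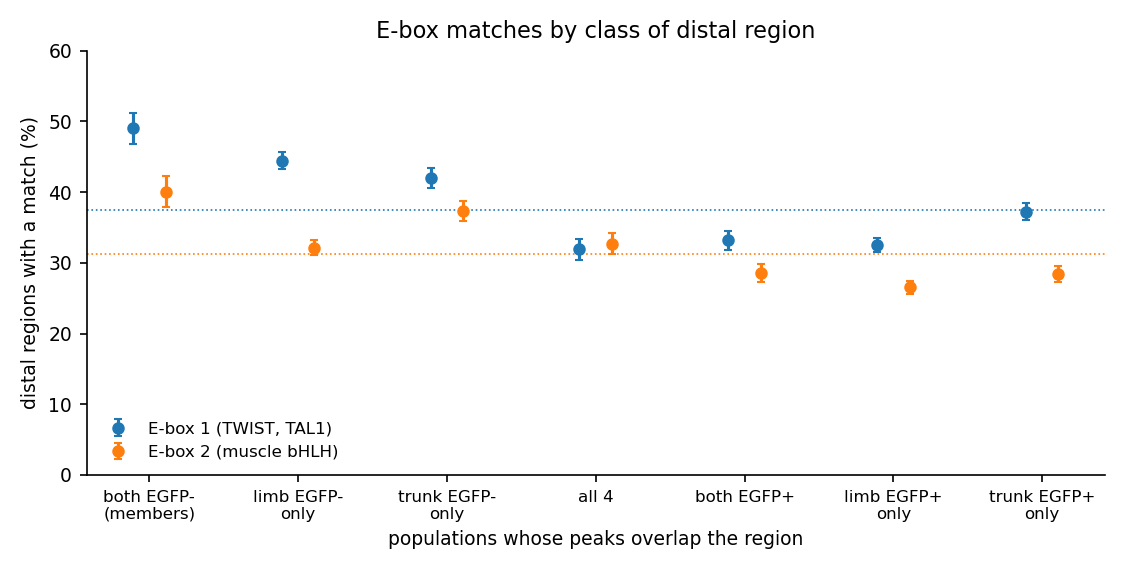
Share of distal regions (y axis, %) with CAGATG (blue, labelled E-box 1) or CAGCTG (orange, labelled E-box 2) within 250 bp of the strongest summit, for 7 classes of distal region named by the populations with a peak (x axis). Bars are 95% exact binomial intervals and dotted lines the share in all distal regions, and members have the highest share of both hexamers, 49.0% and 40.0%.

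CAGATG was densest beside the summits. Its density in members was 1.07 matches per kb within 100 bp of the summit, 1.42 between 100 and 200 bp, 1.57 between 200 and 300 bp (counting error 0.0631) and 1.29 between 300 and 400 bp, and came down to 0.975 between 500 and 600 bp. In the EGFP+ mirror set it stayed between 0.775 and 0.879 in every 100 bp bin up to 1 kb, and in regions of all 4 between 0.732 and 0.831. CAGCTG in members was spread more evenly, from 0.945 to 1.09 matches per kb over the first 400 bp and 0.564 between 900 bp and 1 kb. As the median member was 443 bp wide, the 200 to 300 bp bin lies at or just past the end of the called interval in many members.

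**Figure D3:**
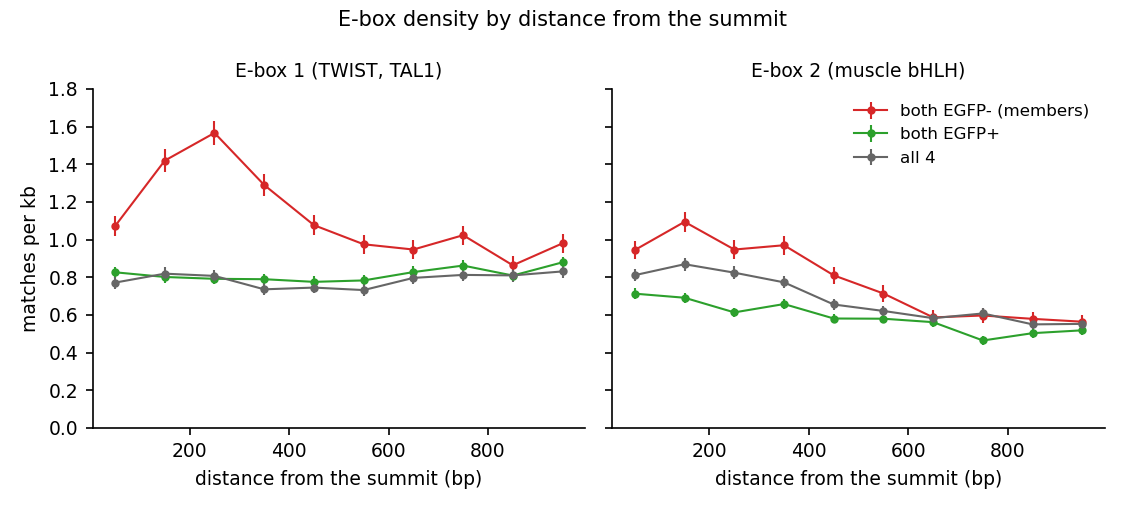
Matches per kb (y axis) in 100 bp bins of distance from the stronger summit (x axis, bp) for CAGATG (left, E-box 1) and CAGCTG (right, E-box 2), with bars for the counting error (square root of the matches). Members (red) reach 1.57 CAGATG per kb at 200 to 300 bp, while the EGFP+ mirror set (green) and regions of all 4 populations (grey) stay near 0.8.

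Inside the set, the share with CAGATG varied less than that with CAGCTG. The first was found in 48.1% of the 343 members past a −log10 q of 5 in both lists, in 49.2% of the 772 past it in one and in 49.2% of the 854 past it in neither, and CAGCTG in 41.1%, 36.1% (32.7 to 39.6) and 43.1% (39.7 to 46.5), the last 2 with intervals that did not overlap. Exonic, intronic and intergenic members had CAGATG in 45.3%, 48.4% and 50.0% and CAGCTG in 48.4%, 38.1% and 40.6%. Members beyond 100 kb of a start site had CAGCTG in 34.9% (30.4 to 39.6), against 41.6% (38.7 to 44.5) at 10 to 100 kb, and CAGATG in 50.8% and 49.0%. Members with an EGFP+ interval within 1 kb had CAGATG in 46.8% (41.1 to 52.5) and those without in 49.4% (47.0 to 51.9), and CAGCTG in 35.1% (29.7 to 40.7) and 40.9% (38.6 to 43.3).

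Among the other 15 motifs counted on both strands, differences were small. The SOX motif AACAATG was in 174 members (8.84%, 7.62 to 10.2), against 6.16% of the EGFP+ mirror set and 7.09% of all distal regions, the family of the chondrocyte factor SOX9. TEAD GGAATG was in 31.5% (29.5 to 33.6), against 27.6% and 28.97%. The MEF2 motif, of a family that acts with MYOD in muscle, was in 4.16% of members (3.33 to 5.14), below the 6.14% of the mirror set and the 6.31% of all distal regions, and the homeodomain core TAATTA was in 8.02% against 8.76% and 10.2%. AP-1 TGANTCA (16.3% against 14.9% of all distal regions), the GATA factor motif AGATAA (20.9% against 20.0%), ETS CAGGAAGT (5.54% against 5.43%), RUNX TGTGGT (32.4% in both), the NFI site TTGGCA (29.3% against 28.99%), TFAP2 GCCNNNGGC (16.2% against 15.5%), forkhead TGTTTAC (7.11% against 7.34%) and KLF CCACACCC (4.06% against 4.42%) had the share of all distal regions inside the members' interval. So had the SRF CArG box, the EBF motif and GRHL AACCGGTT, the last found in 7 members. A match is a description of these letters and names no bound factor.

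Near genes of EGFP- lineages, the members were most frequent around connective tissue collagens. Of 21738 protein-coding genes, 3393 (15.6%) had a member within 100 kb of a start site, and among 272 genes of 11 lists for EGFP- lineages 88 did (32.4%). The EGFP+ mirror set was near 100 of the 272 genes (36.8%), against 26.7% of all genes. The members made up 116 of the 1865 distal regions within 100 kb of those genes (6.22%, 95% exact binomial interval 5.17 to 7.41), against 4.62% of all distal regions and 1544 of 32733 (4.72%) near any gene. The excess was lost at a stricter threshold. Where all 4 lists had to pass −log10 q 5, members were 3.71% near the listed genes, with an interval that held the 3.50% of all distal regions. That setting also drops weaker EGFP+ peaks, so regions with such a peak could count. Where the EGFP- lists alone had to pass that threshold, members were 1.54% (0.967 to 2.32), against 1.07%. Around 30 chondrocyte genes they were 6 of 356 (1.69%, 0.621 to 3.63), where the EGFP+ mirror set took 110 (30.9%, against its 10.8% of all distal regions). The share of a single list rests on few regions, and neighbouring genes can share a member.

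The list of 24 connective tissue collagens and proteoglycans stood highest, with 28 members among 252 distal regions (11.1%, 7.51 to 15.7) and a member near 16 genes (66.7%, against the 15.6% of all genes). The EGFP+ mirror set took 23 of the 252 (9.13%) and had a region near 12 of the genes (50.0%, against 26.7% of all genes). The collagen list was the one list whose member interval lay above 4.62%. Type I collagen is the main fibre of bone, tendon and dermis. Of 23 distal regions near Col1a1, 2 belonged to the EGFP+ mirror set and 4 were members, upstream between 38.6 and 62.3 kb from the start site. That at chr11:94788092-94788756 had 33 reads over 5.48 in limb and 21 over 3.88 in trunk (−log10 p 15.7 and 9.70), and that at chr11:94773849-94774365 had 42 over 16.2 and 53 over 13.0 (7.63 and 16.7). The first was thus higher in limb and the second in trunk. EGFP+ intervals lay 0.146 and 0.553 kb from the pair farthest from Col1a1 and 8.34 and 14.8 kb from the pair nearest to it. Col1a2, encoding the other type I chain, had 2 members among 18 distal regions, with 1 region of the mirror set. The members lay 39.4 kb upstream (4.59 in limb and 6.97 in trunk) and 56.3 kb downstream of a start site (7.49 and 12.5).

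Type VI collagen, a filament of the matrix around cells, had 4 members between 12.6 and 71.2 kb upstream of Col6a2, the same 4 that lay downstream of its neighbour Col6a1. The strongest by the lower of both values (chr10:76505005-76505369) had 27 reads over 6.28 in limb and 26 over 7.54 in trunk (−log10 p 9.76 and 7.49), and the one highest in limb (chr10:76530569-76530928) had 27 over 3.90 and 19 over 4.50 (14.6 and 7.17). CAGATG stood within 250 bp of the summit in all 4, where the share of all members was 49.0%, and in 2 of the 4 Col1a1 members, 0 of the 2 of Col1a2 and 0 of the 2 of Fbln1. They were 4 of the 14 distal regions near Col6a2 and 4 of the 16 near Col6a1, with 0 regions of the EGFP+ mirror set near either gene. Col6a3, on another chromosome, had 2 (12.2 and 10.9 at one, 9.83 and 10.9 at the other), both with CAGATG.

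Type V collagen, which sets the diameter of type I fibrils, had the second strongest member of the list at chr2:27738005-27738725, 38.0 kb upstream of Col5a1. It had 43 reads over 6.48 in limb and 33 over 6.72 in trunk (−log10 p 21.5 and 13.2). Near Col5a1, 2 of 21 distal regions were members and 2 belonged to the mirror set. Col5a2 had 3 intronic members between 2.01 and 30.1 kb from a start site, with −log10 p of at most 8.30 in either list. They were 3 of its 12 distal regions, and 3 others belonged to the mirror set. Lox, encoding the lysyl oxidase that cross-links collagen and elastin, had 3 members upstream among 8 distal regions, and Fbln1, encoding the matrix protein fibulin-1, had 2 of 9. Single members lay near Col3a1, Col4a1, Col4a2, Col15a1, Eln, Fbn1 and Ogn. The proteoglycan genes Dcn, Lum and Bgn had no member, nor had Col18a1, Fbn2, Fn1, Fbln5 and Sparc. Each of these genes had between 4 and 12 distal regions within 100 kb.

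**Figure D4:**
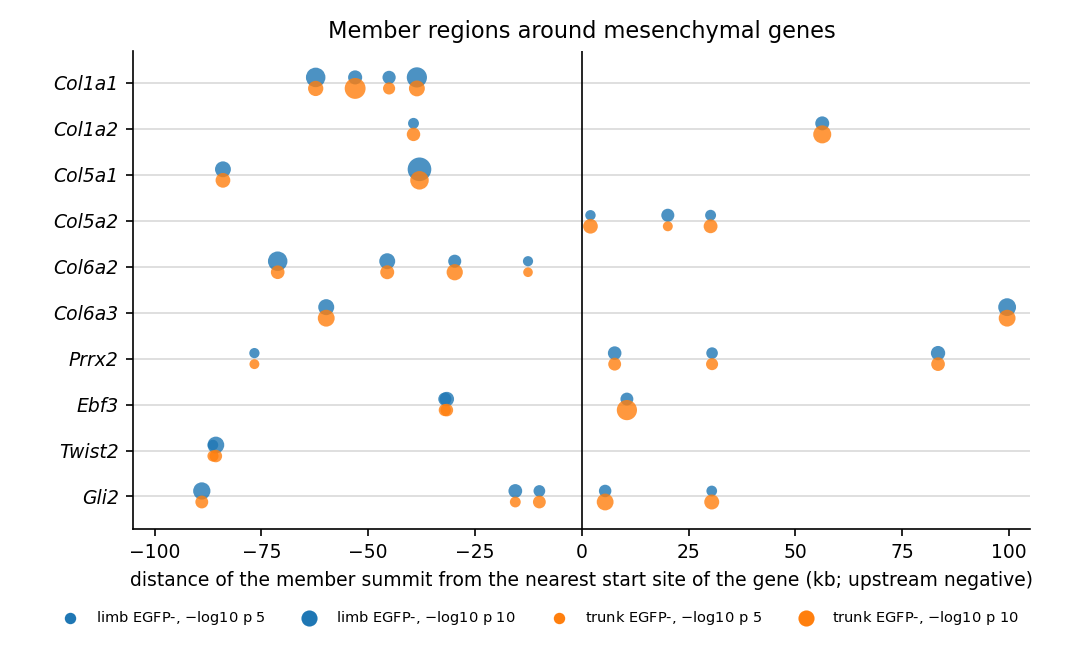
Members within 100 kb of 10 mesenchymal genes, placed by the distance of their stronger summit from the nearest start site of the gene (x axis, kb, upstream negative). Blue points above each line are limb EGFP- and orange points below it trunk EGFP- values, with area proportional to −log10 p, and 4 members lie upstream of Col1a1 and 4 upstream of Col6a2.

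**Figure D5:**
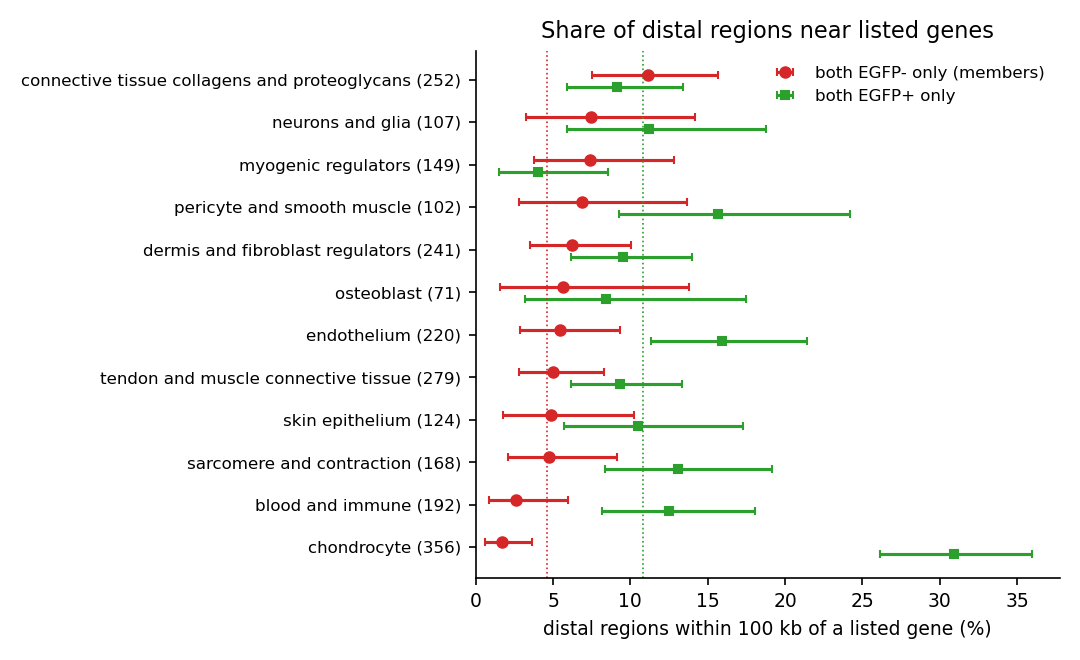
Share of the distal regions within 100 kb of a listed gene (x axis, %) that are members (red) or belong to the EGFP+ mirror set (green), for 12 gene lists with the number of distal regions in brackets. Bars are 95% exact binomial intervals and dotted lines the shares in all distal regions, 4.62% and 10.8%. Collagens and proteoglycans have the highest member share (11.1%) and chondrocyte genes the lowest (1.69%).

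The remaining lists for EGFP- lineages had intervals that included 4.62%. Regulators of dermis and fibroblasts had 15 members among 241 distal regions (6.22%). Prrx2, a homeobox gene of limb mesenchyme, had 4 among 29 distal regions, with 1 of the mirror set. Twist2, a bHLH repressor of mesenchyme, had 2 among 18, with 4 of the mirror set. Foxp1 had 2 among 28, with 5 of the mirror set, and its stronger member (chr6:98926842-98927372) reached 14.6 in limb and 8.14 in trunk. Tendon and muscle connective tissue had 14 of 279 (5.02%). Ebf3, one of the EBF factors of mesenchyme, had 3 of these, and the intronic one (chr7:136905050-136905849) was uneven, with 28 reads over 9.68 in limb and 46 over 10.6 in trunk (6.39 and 15.7). By the lower of both values, the strongest member of this list lay 26.1 kb upstream of Dpt, encoding dermatopontin (6.54 and 6.58).

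Myogenic regulators had 11 members among 149 distal regions (7.38%, 3.74 to 12.8), near 9 of 25 genes, and sarcomere genes 8 of 168 (4.76%), near 9 of 30. The strongest myogenic one lay 657 bp downstream of a start site of Cdh15, the gene of M-cadherin, in an exon (chr8:123575242-123575551, 24 reads in limb and 32 in trunk, −log10 p 8.26 and 9.61). Chrna1, encoding a subunit of the muscle acetylcholine receptor, had 2, and Pax7, the regulator of muscle stem cells, had 1 at 100.0 kb (7.74 and 6.58). The start site nearest to the Pax7 member was that of Klhdc7a, 34.5 kb away. Among sarcomere genes, the member near Casq2, encoding a calsequestrin (chr3:102059840-102060244), was higher in trunk, 7.02 against 11.6. It lay 66.1 kb from a start site of Casq2, while the nearest start site, of Vangl1, was 14.2 kb away. The member near the fast troponin genes Tnnt3 and Tnni2 was also higher in trunk (6.22 against 11.7), and its nearest start site was that of Mrpl23, 9.65 kb away. The stricter threshold on all 4 lists lowered these shares below that of all distal regions (3.50%), and members were then 1 of 60 distal regions for myogenic (1.67%), 0 of 90 for sarcomere and 1 of 117 for tendon genes (0.855%). CAGCTG was in 5 of the 11 myogenic and 4 of the 8 sarcomere members, with intervals (16.7 to 76.6% and 15.7 to 84.3%) that held the 40.0% of all members. Lists outside muscle ran from 0 of 8 for neurons and glia to 3 of 4 for osteoblast genes. Between them stood 1 of 6 for skin, 3 of 12 for endothelium, 10 of 28 for collagens, 6 of 14 for tendon and 7 of 15 for dermis.

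Endothelium had 12 of 220 (5.45%), among them 2 near Sox17, the only 2 distal regions within 100 kb of this regulator of arterial endothelium, with −log10 p of 8.77 in limb and 9.86 in trunk at the stronger one, 2 near Notch4 and 1 in an intron of Erg (7.92 and 7.18), an ETS factor of endothelium. The EGFP+ mirror set took more of the distal regions near endothelial genes, 35 of 220 (15.9%). Pericyte and smooth muscle genes had 7 of 102 (6.86%), the strongest 90.0 kb upstream of Acta2, encoding smooth muscle actin (chr19:34322830-34323736, 30 reads in limb and 25 in trunk, 14.53 and 13.4). The start site nearest to this member was that of Fas, 54.9 kb away. Blood and immune genes had 5 of 192 (2.60%, 0.851 to 5.97). The strongest of these lay in an intron of Lrp3, 95.3 kb from Cebpa, and had an EGFP+ interval 176 bp away. It differed between tissues, with 13 reads in limb and 28 in trunk (7.69 and 20.0).

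Neuronal and glial genes had 8 members of 107 (7.48%), near Nefl and Nefm (13.3 and 9.24 at 1 shared member), Hoxb8, Neurog1, Pou3f1 and Prph. Skin genes had 6 of 124 (4.84%), including 1 in an intron of Trp63, the regulator of stratified epithelium, at 4.98 and 6.61. Osteoblast genes had 4 of 71 (5.63%), near Bglap, Ifitm5 and Alpl. The Ifitm5 one was 96.5 kb from that gene and nearest to a start site of B4galnt4. Apart from the pair at Col2a1, the chondrocyte list had single members near Col9a3, Epyc, Matn1 and Wwp2.

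The nearest genes of members seldom had promoters of the same pattern. The promoter of the nearest gene had a peak in all 4 populations for 1130 members (57.4%, against 60.2% of all distal regions). It had a peak in none for 409 (20.8%, against 19.4%). A peak in both EGFP- populations alone was found for 51 (2.59%, 1.93 to 3.39), against 0.649% in the EGFP+ mirror set and 1.20% of all distal regions. A peak in both EGFP+ populations alone was found for 41 (2.08%, 1.50 to 2.81), against 4.69% in the mirror set and 2.86% of all distal regions.

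Genome-wide, the gene with most members within 100 kb was Septin9, a cytoskeletal GTPase, with 6 of 45 distal regions, followed by 8 genes with 5 each. These were Ccn6, encoding a matricellular protein, Tex26, the RNA-binding gene Rbms3, the zinc finger gene Zfp366, Parva, encoding a focal adhesion protein, Tgfbr3, the betaglycan co-receptor of TGF-β, Gli2, a transcription factor of hedgehog signalling, and Arhgef3, a guanine nucleotide exchange factor. For Gli2 they were 5 of 19 distal regions and spanned from 89.0 kb upstream to 30.4 kb downstream. The outermost upstream member was the strongest in limb (11.5, trunk 6.37) and one 5.45 kb downstream the strongest in trunk (10.9, limb 5.98). The distal regions near these 8 genes ran from 15 for Zfp366 to 41 for Tgfbr3, and the ranking does not adjust for that number.

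Most members stood alone. With gaps under 50 kb joined, 1429 (72.6%) had no other member in reach and 540 fell in 232 runs of 2 or more. The longest run, 6 members at chr3:37928926-37990501, lay 150 to 212 kb upstream of the nearest protein-coding start site, that of the predicted gene Gm5148, with −log10 p between 5.74 and 12.1 in limb and between 4.95 and 12.1 in trunk and 0 regions of the mirror set among 10 distal regions. A run of 5 at chr12:79995652-80068730, 91.2 to 164 kb downstream of Zfp36l1, which promotes decay of AU-rich mRNAs, reached 15.0 in limb and 12.2 in trunk at its strongest member. A run of 5 at chr10:39103244-39142741 upstream of Ccn6 held a member with 47 reads in limb and 32 in trunk (22.3 and 11.7) beside 4 weaker ones. By chromosome, the share of distal regions that were members ran from 3.73% on 17 to 5.48% on 5 among the autosomes and was 2.85% on X (20 of 701).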

How the data were processed

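The 4 deposited MACS2 peak lists, one for each population, were used as the authors made them. They sampled all libraries to one number of reads, trimmed with cutadapt 1.18, aligned to GRCm39 with Bowtie2 2.3.5.1, kept reads of high mapping quality and called summits with MACS2 2.2.7.1 without an input library, extending reads to 200 bp. Each deposited row gives a score, a fold enrichment (a ratio to local background), −log10 p, −log10 q and a summit offset (another unit, bases from the start), and −log10 p was the main measure here. Sampling came before alignment and filtering, so usable depth could still differ, and the lowest background in a list ran from 1.49 reads in limb EGFP+ to 1.83 in trunk EGFP- cells. Local background from the same library replaces a control. Limb and trunk were sequenced on different lanes, so lane and tissue cannot be told apart. The replicate named inside the trunk EGFP- peak names differs from that in its label.

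Rows of one start and end were joined, intervals overlapping by 1 bp were merged, and regions were set against 67388 start sites of 21757 GENCODE vM39 protein-coding genes (GRCm39, 21738 symbols). Reads and background at each summit were recovered from fold and −log10 p, within 0.01 of the deposited −log10 p for 100% of intervals. E-boxes and other motifs were searched on both strands within 250 bp of the strongest summit. Shares carry 95% exact binomial intervals, which cover counting error alone. Members, gene lists, motifs and the naming rule were chosen with earlier results of these data known. The naming rule took the 10 members with the highest lower −log10 p, up to 3 per gene list, the 3 widest, the 3 densest runs, the 10 genes with most members within 100 kb and listed genes with at least 2, and 1 of the members it named is not reported here. All 10 E-box hexamers, the density profile, the check on tandem repeats and the longer sequence windows were added after values were seen. With 1 library per population and members selected on these calls, no test was run. Sequence was read with pysam 0.24.0, intervals came from scipy 1.17.1, tables were handled with pandas 2.3.3 under Python 3.11.15, and the scripts were tested on simulated data.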

Additional observations from a re-analysis of the deposited data

How the results depend on the processing

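No paired analysis was possible because each population has 1 library and no result comes from a test. A −log10 q of at least 5 in all 4 lists left 599 members, 3.50% of distal regions, and took the member share to 0.529% near chondrocyte genes and 3.71% near non-chondrocyte list genes, with 10.9% near collagens. The same threshold in the EGFP- lists alone left 344 members, 1.07% of distal regions, with 0.306% near chondrocyte genes, 1.54% near non-chondrocyte list genes and 5.46% near collagens. Requiring no EGFP+ interval within 1 kb gave 3.89% of distal regions and 4.99% near non-chondrocyte list genes. A reach of 500 kb in place of 100 kb lowered the collagen share to 7.40%. Within 100 bp of the summit, CAGCTG was in 16.6% of members and CAGATG in 19.3%, against 14.02% and 16.6% of all distal regions, and around the trunk EGFP- summit CAGATG was in 46.5%. Counting an interval only if it covered 50% of the shorter one could not change a region, since each interval lies wholly inside its own region. Leaving out the 11 members with a high EGFP+ background nearby, an alternative chosen after seeing the data, gave CAGATG in 49.0%. Leaving out matches beside short tandem repeats, also added later, gave CAGATG in 48.7% and CAGCTG in 39.7%. Of 140 alternative values, 112 stayed within the main value's interval or within 1.5 times of the main count or width, and 13 of the 28 others belong to gene lists other than collagens and chondrocyte genes, all under the thresholds on q. Members had a median of 16 (limb) and 17 (trunk) reads a summit, and 854 passed a −log10 q of 5 in neither EGFP- list. No other depth was tried.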
